A study of Mus musculus with 34 samples.

Results

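The RNA levels of 9 genes that are read as a YAP and fetal intestinal program were followed in 3 murine colorectal tumour lines (called NaJa-D, NaJa-F and also NaJa-G) with and without the RAF inhibitor encorafenib. The members were chosen by name: the coactivators Yap1 and Wwtr1, the YAP target genes Cyr61, Ctgf, Ankrd1 and Amotl2, and the fetal and regenerative markers Ly6a, Anxa1 and Clu. The choice was made with earlier results of these data known. Cyr61 and Ctgf are listed under their newer symbols Ccn1 and Ccn2. All 9 of 9 were among the 14107 genes measured, and every library held at least 3011 reads of each.

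The lines came from organoids of the colon of C57BL/6N mice that carried the tamoxifen-inducible Villin::CreERT2 transgene, one mutant Braf V600E allele, Trp53 R172H and an Apc deletion, and all groups shared this genotype. The organoids had been transplanted into syngeneic recipients, and each line was grown from the peritoneal fluid of a recipient, so a line stands for a single isolate. RNA-seq was performed on 34 libraries in 12 groups, made of 3 lines, encorafenib at 0.5 µM or the DMSO vehicle, and harvest at day 1 or day 5. Encorafenib or DMSO was added with fresh medium on day 0, and also on days 2 and 4 for the later harvest. There were 3 libraries in 10 groups and 2 libraries in 2 groups, NaJa-F with encorafenib at day 5 and NaJa-G with DMSO at day 5. The labels do not say whether the libraries of a group were separate cultures, so p-values measure the spread between these libraries, which may be technical.

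YAP and its relative TAZ, the product of Wwtr1, are coactivators that bind no DNA themselves. In the Hippo pathway, MST kinases activate LATS kinases, which phosphorylate YAP and TAZ and keep them in the cytoplasm, and without that phosphorylation they enter the nucleus and act through TEAD transcription factors. Cyr61, Ctgf, Ankrd1 and Amotl2 are the targets most often used to read this activity, and Amotl2 encodes an angiomotin that in turn binds and restrains YAP. In the gut, YAP is known for its part in regeneration, during which crypt cells lose adult stem cell genes and express genes of the fetal epithelium. Ly6a (Sca-1) marks this fetal-like state, Anxa1 encodes a calcium-dependent phospholipid binding protein of repairing epithelium, and Clu, the secreted chaperone clusterin, marks the revival stem cell that appears after injury. The RNA levels given here are not a measure of where the YAP protein is or how it is phosphorylated.

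TEAD factors recognise the hexamer GGAATG, or CATTCC on the other strand, and the promoters of the members were searched for these letters on both strands. RefSeq promoters of GRCm38.p6, from 250 bases before to 50 bases after the transcription start, were found for 6 of 9 members. All 6 of 6 held at least 1 match, while 16.6% of the 27025 genes in the same table did, or 14.7% of its 32851 promoters. The promoters of the 4 members that rose with encorafenib in every line at both times, and for which a promoter was at hand, are printed 5′ to 3′ on the strand of the gene, with the TEAD hexamers in capitals. They lie at chr3:145649936-145650235 on the minus strand (Cyr61), chr19:36119795-36120094 on the minus strand (Ankrd1), chr9:102717554-102717853 on the plus strand (Amotl2) and chr19:20390622-20390921 on the minus strand (Anxa1).
Cyr61: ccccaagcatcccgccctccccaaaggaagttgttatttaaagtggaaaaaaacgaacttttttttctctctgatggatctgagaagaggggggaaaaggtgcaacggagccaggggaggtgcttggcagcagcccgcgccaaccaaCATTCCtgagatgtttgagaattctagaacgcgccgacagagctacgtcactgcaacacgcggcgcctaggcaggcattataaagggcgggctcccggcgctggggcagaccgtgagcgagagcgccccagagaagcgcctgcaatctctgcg
Ankrd1: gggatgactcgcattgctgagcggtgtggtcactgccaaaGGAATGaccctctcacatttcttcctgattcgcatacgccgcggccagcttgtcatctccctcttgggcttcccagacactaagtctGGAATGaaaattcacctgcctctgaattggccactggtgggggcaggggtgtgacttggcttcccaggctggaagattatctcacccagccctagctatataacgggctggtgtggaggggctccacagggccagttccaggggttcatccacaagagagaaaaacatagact
Amotl2: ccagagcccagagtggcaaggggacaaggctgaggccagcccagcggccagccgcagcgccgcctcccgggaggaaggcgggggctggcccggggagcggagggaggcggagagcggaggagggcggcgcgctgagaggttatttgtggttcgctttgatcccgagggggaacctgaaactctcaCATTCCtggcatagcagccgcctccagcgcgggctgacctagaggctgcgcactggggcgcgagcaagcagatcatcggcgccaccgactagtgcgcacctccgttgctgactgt
Anxa1: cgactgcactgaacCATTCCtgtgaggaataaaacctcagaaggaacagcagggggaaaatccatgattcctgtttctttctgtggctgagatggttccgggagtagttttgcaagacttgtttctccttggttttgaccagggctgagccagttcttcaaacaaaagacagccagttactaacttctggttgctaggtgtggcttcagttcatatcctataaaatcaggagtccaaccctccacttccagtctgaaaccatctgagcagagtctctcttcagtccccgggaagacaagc
The Cyr61 hexamer lay at -103 to -98 from the start site and that of Amotl2 at -65 to -60, both on the reverse strand. Ankrd1 had 2 matches, at -210 to -205 and at -123 to -118, on the forward strand, and Anxa1 had 1 at -236 to -231 on the reverse strand. The Yap1 promoter held 1 match at -141 to -136, and the hexamer of Wwtr1 lay at -136 to -131 from one listed start site and at -170 to -165 from another. None of the 7 promoters of these 6 members held the AP-1 motif TGANTCA or a serum response (CArG) motif, which were present in 7.81% and 1.63% of all promoters. A match of letters is not a bound site, and the windows do not reach distal enhancers.

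Read depth ran from 46007050 to 80121299 counts a library. Levels are given as CPM, counts scaled to a common library total, after TMM scaling, and a gene was called higher or lower at a Benjamini-Hochberg adjusted p below 0.01 from limma-voom over all 14107 genes. Epithelial markers were present in every group, with a summed level of 2622 to 10856 CPM over 8 of 8 genes, but Vil1 was at 0.285 to 14.0 CPM and Cdx2 at 1.14 to 65.3 CPM. The 2 of 5 endothelial markers analysed summed to at most 1.96 CPM and the 2 of 7 leukocyte markers to at most 10.2 CPM. The 6 of 8 fibroblast markers summed to 2.62 to 9.11 CPM in NaJa-D and NaJa-F and to 20.2 to 137 CPM in NaJa-G, led by Col1a1, and Pdgfrb was at 0 in at least 1 library. Of the mesothelial markers, of which 4 of 6 were analysed, Msln was at 496 CPM or more in all libraries and is also a fetal marker. Gpm6a was at 118 CPM in NaJa-D encorafenib day 5 replicate 1, at 205 CPM in NaJa-D DMSO day 1 replicate 3 and at 0.0754 CPM or less in all others. The second of these libraries carries the label NaJa-G in its cell line field. The lowest correlation of its expression profile with the libraries of its titled group was 0.995. The highest with the libraries of NaJa-G with DMSO at day 1 was 0.920, and it was kept under its title. Member results and list counts that use it are given with and without it, and named list genes with it.

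The members were well expressed in every group. Per kilobase of exon, Ly6a had the highest level in all groups, from 410 to 2188 FPKM, at a percentile of 99.6 to 99.96 among the genes of a group. Cyr61 stood at 93.2 to 375 FPKM and Ctgf at 40.5 to 468 FPKM, while Yap1, at 18.5 to 24.3 FPKM, and Wwtr1, at 17.5 to 57.8 FPKM, were lower. The group means of Yap1 spanned 1.31-fold over the 12 groups, the narrowest range of the 9 members, and those of Ctgf 11.6-fold, the widest.

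**Figure D1:**
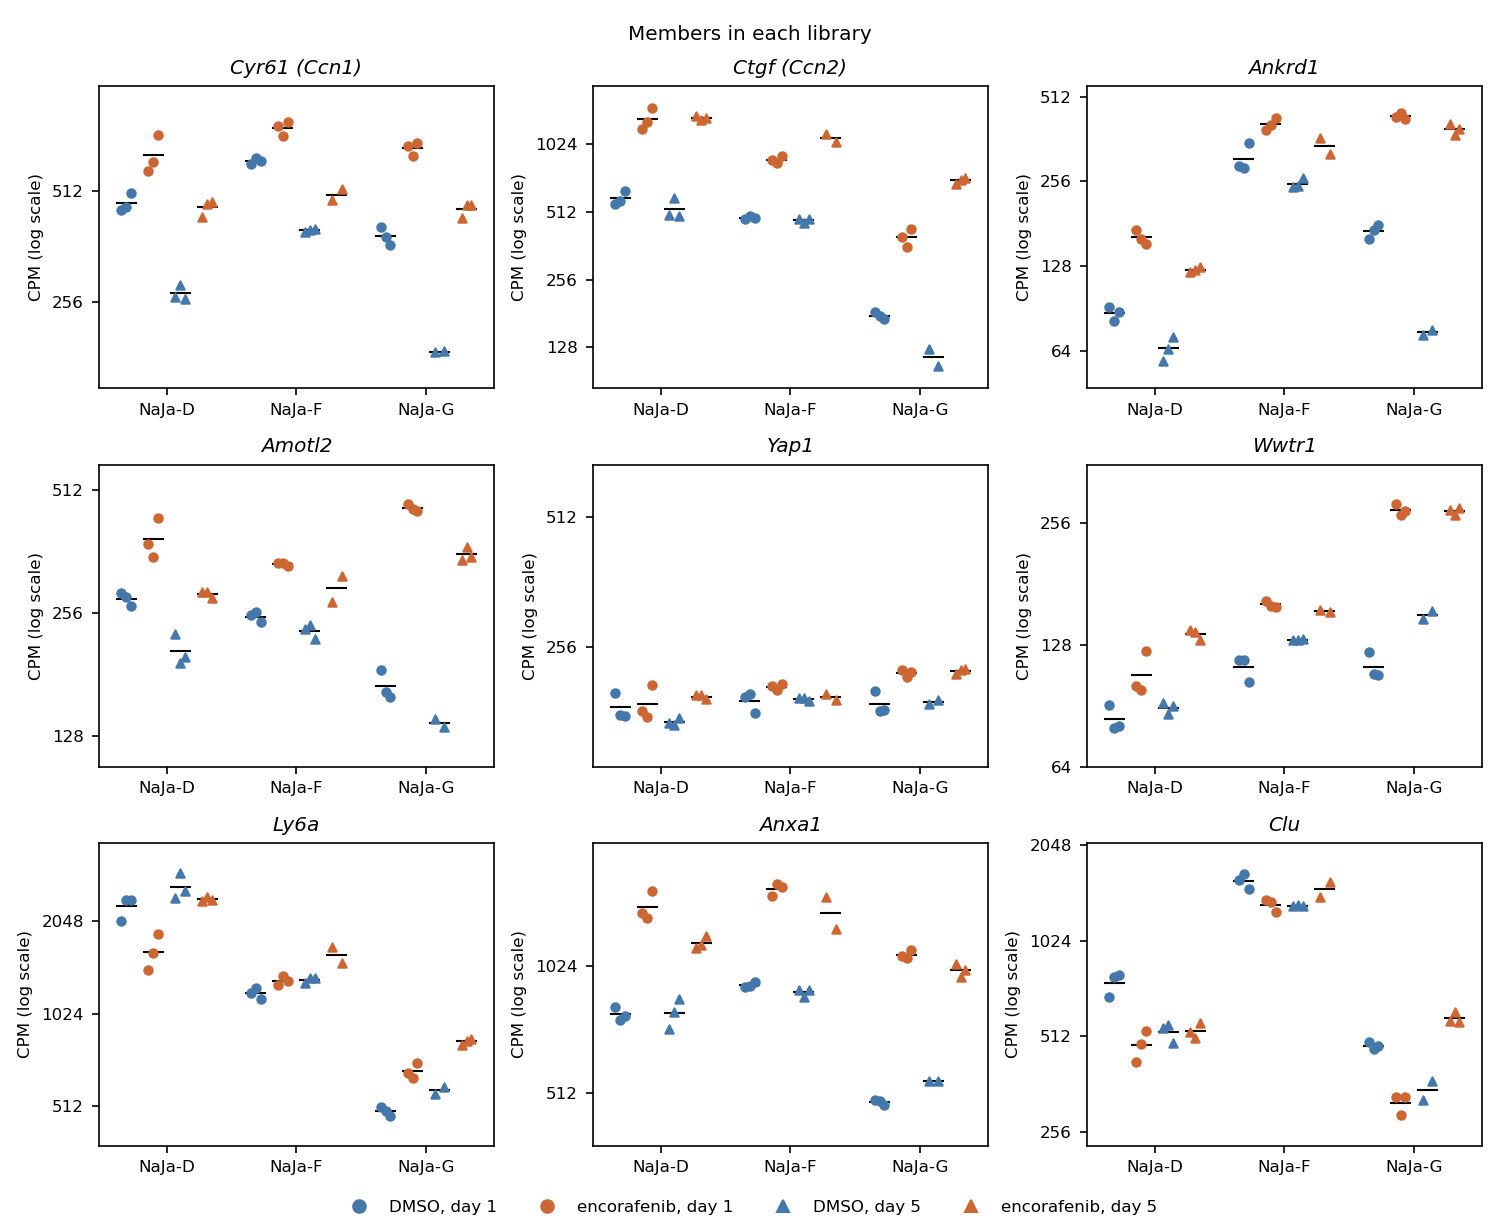
Level of each member in CPM on a log scale in all 34 libraries, grouped by NaJa line, with DMSO in blue, encorafenib in orange, day 1 as circles and day 5 as triangles; horizontal bars are group means of 2 or 3 libraries. The orange symbols of Cyr61, Ctgf, Ankrd1, Amotl2 and Anxa1 lie above the blue symbols of the same line and day in every panel section. Yap1 stays between 169 and 227 CPM, and Ly6a separates mainly by line. For Clu only NaJa-F stands apart, while NaJa-D and NaJa-G interleave.

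The first question was how the levels of these genes differed between encorafenib and DMSO. Cyr61, Ctgf, Ankrd1, Amotl2 and Anxa1 rose with encorafenib in all 6 comparisons of 3 lines and 2 times, by 1.23-fold to 6.12-fold. Wwtr1 rose in 5 comparisons, Yap1 in 3 and by at most 1.18-fold, and the fetal markers Ly6a and Clu moved in different directions in different lines and at different times. Over all 54 member values, 41 were called higher, 3 lower and 10 neither. In bulk RNA, more cells with a transcript and more transcript per cell cannot be told apart.

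In NaJa-D at day 1, 6 of 9 members were higher and 2 were lower, where 23.7% of all genes were called higher and 21.2% lower. At day 5, 7 of 9 were higher and none lower, against 18.3% and 14.7% of all genes. In NaJa-F, 6 of 9 were higher at day 1 (all genes 17.5%) and 5 of 9 at day 5 (9.70%), and none was lower (all genes 12% and 8.50%). In NaJa-G, 8 of 9 were higher and 1 lower at day 1 (all genes 35.3% and 28.7%), and all 9 were higher at day 5 (28.5%, with 24.7% of all genes lower). The median log2 fold change of all genes lay between -0.02 and 0.04 in these comparisons.

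**Figure D2:**
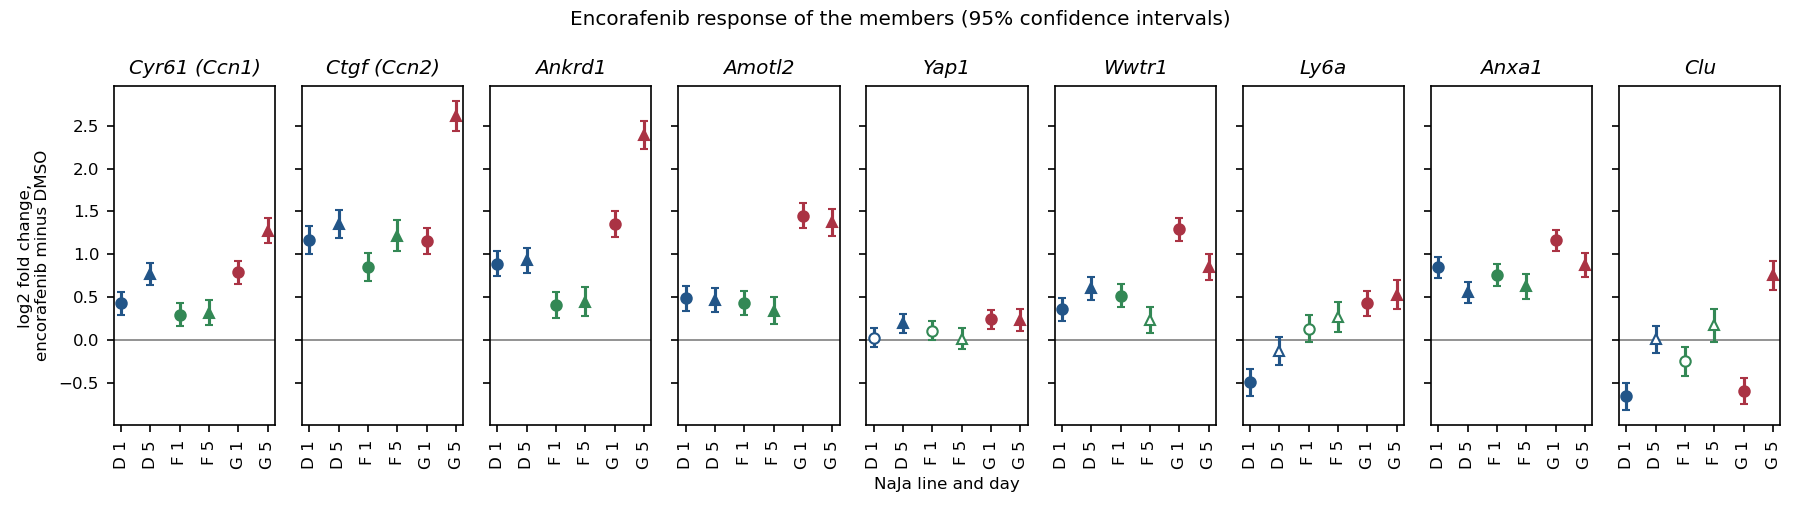
Log2 fold change of each member with encorafenib against DMSO, with 95% confidence intervals from limma-voom, in NaJa-D (blue), NaJa-F (green) and NaJa-G (red) at day 1 (circles) and day 5 (triangles); filled symbols passed an adjusted p below 0.01. The Ctgf and Ankrd1 values of NaJa-G at day 5, 2.61 and 2.39, stand highest, and Clu lies below 0 at day 1 and above 0 at day 5 in NaJa-G.

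Of the coactivators, Yap1 (chr9:7931999-8004596, minus strand) changed little. In NaJa-D its level was 199.96, 178 and 177 CPM with DMSO and 182, 176 and 209 CPM with encorafenib at day 1, and the groups overlapped. It rose in NaJa-D at day 5, from 169 to 176 CPM up to 194 to 198 CPM (log2 fold change 0.19 ± 0.05 SE, adjusted p = 0.00438). In NaJa-G it rose at day 1, by 0.24 ± 0.05 (adjusted p = 0.000301), and at day 5, by 0.23 ± 0.06 (adjusted p = 0.00161). The rise of NaJa-D at day 5 and the day 1 rise of NaJa-G did not pass when only the groups compared entered the fit (adjusted p = 0.017 and 0.0213). The first of these also did not pass without DMSO replicate 1 or 2 or encorafenib replicate 1 or 2 (0.18 to 0.19, adjusted p = 0.0149 to 0.0191), and the rise at day 5 in NaJa-G did not pass without DMSO replicate 1 (0.22, adjusted p = 0.0204). In NaJa-F the values were 0.11 and 0.02 with 95% intervals that ended at 0.22 and 0.14, below the fitted rises of all 4 target genes in that line. Yap1 shares exon bases with an antisense transcript, and whether strand was used in counting is not given in the sources used here.

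Wwtr1 (chr3:57455649-57575910, minus strand) rose more than its paralog. In NaJa-G at day 1 it went from 123, 108 and 108 CPM with DMSO to 285, 269 and 275 CPM with encorafenib, with no overlap (log2 fold change 1.29 ± 0.07, adjusted p = 3.65e-16). At day 5 the DMSO libraries of NaJa-G held 149 and 156 CPM and the encorafenib libraries 276, 268 and 279 CPM, a rise of 0.85 ± 0.08. In NaJa-D it rose by 0.36 ± 0.07 at day 1 and 0.60 ± 0.07 at day 5, and in NaJa-F by 0.52 ± 0.07 at day 1. The NaJa-F value at day 5, 0.24 ± 0.07, did not pass (adjusted p = 0.0169), and the NaJa-D rise at day 1 did not pass with only the 2 groups in the fit (adjusted p = 0.0287).

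Among the targets, Ctgf (chr10:24595442-24598683, plus strand), which encodes a secreted matricellular protein, had the widest range of group means. In NaJa-G at day 5 it went from 126 and 105 CPM with DMSO to 683, 712 and 724 CPM with encorafenib. This was a 6.12-fold rise (log2 fold change 2.61 ± 0.08, adjusted p = 2.02e-20) between groups that lay far apart. At day 1 the same line went from 183, 177 and 171 CPM to 396, 358 and 431 CPM, a 2.23-fold rise. In NaJa-D, where the DMSO level was higher, it went from 557, 573 and 637 CPM to 1201, 1288 and 1487 CPM at day 1 and from 498, 588 and 493 CPM to 1363, 1311 and 1339 CPM at day 5. In NaJa-F it went from 478, 489 and 481 CPM to 869.7, 841 and 905 CPM at day 1 and from 475, 458 and 474 CPM to 1135 and 1048 CPM at day 5. No DMSO library of any line overlapped the encorafenib libraries of its own line and day. Ctgf also shares exon bases with an antisense transcript.

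Ankrd1 (chr19:36111961-36120099, minus strand), a nuclear ankyrin repeat protein, rose most in NaJa-G at both times. In NaJa-G it went from 159, 171 and 179 CPM to 434, 446 and 426 CPM at day 1 and from 73.0 and 76.1 CPM to 409.6, 373 and 393 CPM at day 5, log2 fold changes of 1.36 ± 0.07 and 2.39 ± 0.08. In NaJa-D it went from 91.9, 81.5 and 88.1 CPM to 172, 159 and 153 CPM at day 1 (0.89 ± 0.07), and the day 5 rise was 0.93 ± 0.07. In NaJa-F, which had the highest DMSO level of Ankrd1, the rises were 0.41 ± 0.08 and 0.44 ± 0.08. The NaJa-F rise at day 5 did not pass without encorafenib replicate 1 (0.34, adjusted p = 0.0198), which left that group with 1 library assumed to vary like the others.

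Cyr61 (chr3:145646976-145649981, minus strand), a matricellular relative of Ctgf, rose by smaller steps. In NaJa-G at day 5 it went from 188 and 189 CPM to 432, 469.9 and 468 CPM, a 2.42-fold rise. In NaJa-D it rose 1.35-fold at day 1 and 1.70-fold at day 5, and the NaJa-F log2 fold changes were 0.30 ± 0.07 and 0.32 ± 0.07. Amotl2 (chr9:102716672-102733418, plus strand) rose 2.74-fold in NaJa-G at day 1, from 186, 164 and 159.6 CPM to 474, 462 and 456 CPM, and 2.59-fold at day 5. In NaJa-D and NaJa-F the Amotl2 rises lay between 1.27-fold and 1.40-fold. Without NaJa-F encorafenib day 5 replicate 2, the count of members higher in that comparison dropped from 5 to 3, as Cyr61 (0.25, adjusted p = 0.0484) and Amotl2 (0.22, adjusted p = 0.0878) no longer passed. Amotl2 also missed the threshold without DMSO replicate 3 (0.30, adjusted p = 0.0109). With only the 2 groups in the fit, the rise of Cyr61 in NaJa-D at day 1 did not pass (adjusted p = 0.0147).

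Of the fetal markers, Anxa1 (chr19:20373428-20390944, minus strand) rose in every comparison. In NaJa-G at day 1 it went from 491, 489.6 and 479 CPM to 1083, 1071 and 1116 CPM, a 2.24-fold rise (log2 fold change 1.16 ± 0.06, adjusted p = 2.96e-16). In NaJa-F at day 1 it went from 911, 917 and 936 CPM to 1504, 1604 and 1575 CPM, a 1.69-fold rise. In NaJa-D at day 1 it went from 819.6, 762 and 779 CPM to 1367, 1335 and 1549 CPM, a 1.80-fold rise. The rises at day 5 were 1.47-fold in NaJa-D, 1.54-fold in NaJa-F and 1.83-fold in NaJa-G.

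Ly6a (chr15:74994877-74998031, minus strand), a surface protein of the Ly6 family, fell in NaJa-D at day 1 and rose in NaJa-G. In NaJa-D at day 1 it went from 2052, 2399.98 and 2395 CPM to 1414, 1608 and 1854 CPM, a fall by 0.49 on the log2 scale (SE 0.08, adjusted p = 4.73e-06), and at day 5 the groups overlapped (-0.13, adjusted p = 0.192). In NaJa-G it went from 508, 496 and 478 CPM to 657, 631 and 707 CPM at day 1 and from 561 and 594 CPM to 813, 836 and 849 CPM at day 5, with log2 fold changes of 0.43 ± 0.07 and 0.53 ± 0.08. The NaJa-F values of 0.13 and 0.27 did not pass (adjusted p = 0.168 and 0.0195). The fall in NaJa-D did not pass with only the 2 groups in the fit (adjusted p = 0.0125). Ly6 genes are similar in sequence and may share reads: Ly6c1, at 157 to 1016 CPM, fell at day 1 in NaJa-D (-0.70) and rose at day 5 in NaJa-G (0.77), whereas Ly6g, at 0.415 to 56.2 CPM, fell in all 6 comparisons.

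Clu (chr14:65968483-65981547, plus strand) changed direction with time in NaJa-G. At day 1 it fell from 490.5, 467 and 479 CPM with DMSO to 329, 290.3 and 329.9 CPM with encorafenib (log2 fold change -0.60, SE 0.08, adjusted p = 4.58e-08). At day 5 it rose from 324 and 369.8 CPM to 572, 609 and 568 CPM (0.75, SE 0.08, adjusted p = 1.01e-08). The groups did not overlap at either time. In NaJa-D it fell at day 1, from 679, 787 and 802 CPM to 424, 483 and 532 CPM (-0.66, SE 0.08), and was 0.01 at day 5. In NaJa-F, which had the highest Clu level, neither value passed (-0.25 and 0.17, adjusted p = 0.0177 and 0.184).

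Some cell type markers moved with the responses. The paper describes NaJa-D as epithelial-like, NaJa-G as mesenchymal-like and NaJa-F as intermediate. It also reports that host cells disappeared from the cultures as they were passaged. In NaJa-G the fibroblast markers summed to 57.6 to 78.0 CPM with DMSO and 95.6 to 112 CPM with encorafenib at day 1, and to 20.2 to 22.9 CPM and 121 to 137 CPM at day 5. The epithelial markers summed to 3346 to 4184 CPM and 5172 to 5329 CPM at day 1, and to 2622 to 3151 CPM and 3227 to 3435 CPM at day 5. Of the 8 epithelial genes in NaJa-G, 5 were higher and 1 lower at day 1 (all genes 35.3% and 28.7%). At day 5, 3 were higher and 2 lower (28.5% and 24.7%), with log2 fold changes from -2.78 to 1.07. The mesothelial markers, of which Msln makes up nearly the whole sum, went there from 558 to 724 CPM up to 1328 to 1523 CPM at day 1 and from 497 to 565 CPM up to 1535 to 1744 CPM at day 5. Without Msln the day 5 sums were 0.624 to 0.903 CPM and 7.10 to 7.48 CPM. In NaJa-D at day 1 the mesothelial sum went from 1236 to 1718 CPM up to 2604 to 3520.5 CPM and the epithelial sum from 7128 to 7549 CPM up to 7987 to 10856 CPM. At day 5 in NaJa-D the mesothelial sum went from 1225 to 1454 CPM up to 2214 to 2859 CPM. The epithelial sum went there from 6252 to 6867 CPM up to 8190 to 8673 CPM. Of the 8 epithelial genes, 3 were higher and 2 lower in NaJa-D at each time. In NaJa-F the epithelial sum went from 5329 to 6043 CPM up to 7440 to 7980 CPM at day 1 (3 higher, 0 lower). At day 5 it went from 4798 to 4965 CPM up to 5466 to 6159 CPM (1 and 1). The mesothelial sum of NaJa-F went from 743 to 985 CPM up to 1104 to 1176 CPM at day 1. At day 5 it went from 660 to 712 CPM up to 1002 to 1031 CPM. The fibroblast sum of NaJa-D at day 5 went from 2.82 to 3.44 CPM up to 8.37 to 8.92 CPM. The all-gene shares of these comparisons are those given with the member counts. The part of these markers in the member responses was not tested. Without the NaJa-D library whose fields disagree, the day 1 counts of that line were again 6 higher and 2 lower, with log2 fold changes of 0.45 (Cyr61), 1.20 (Ctgf), 0.87 (Ankrd1), 0.42 (Amotl2), 0.30 (Wwtr1), 0.81 (Anxa1), -0.49 (Ly6a) and -0.64 (Clu). Yap1 was then -0.03 and again not called.

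The lines could also be compared without drug, as the mean of the day 1 and day 5 DMSO groups of each line. NaJa-G had the lowest Ctgf, Ly6a, Anxa1, Amotl2, Cyr61 and Clu of the lines, and NaJa-D the highest Ctgf and Ly6a. Ankrd1, Clu, Cyr61 and Anxa1 were highest in NaJa-F. The log2 fold changes of NaJa-F against NaJa-D were 0.47 ± 0.04 for Cyr61 and 0.20 ± 0.04 for Anxa1. Between NaJa-F and NaJa-D, 5 of 9 members were higher and 2 lower in NaJa-F, where 32.6% of all genes were higher and 29.0% lower. Between NaJa-G and NaJa-D, 2 were higher and 6 lower in NaJa-G (all genes 33.3% and 34.1%). Set against NaJa-F, no member was higher in NaJa-G and 7 were lower (all genes 25.2% and 29.2%). The 3 comparisons share libraries.

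Ly6a was high in NaJa-D, intermediate in NaJa-F and low in NaJa-G. Its DMSO libraries held 2052 to 2923 CPM in NaJa-D, 1144 to 1332 CPM in NaJa-F and 478 to 594 CPM in NaJa-G, with no overlap. It was 1.95-fold lower in NaJa-F than in NaJa-D (log2 fold change -0.97 ± 0.05), 2.35-fold lower in NaJa-G than in NaJa-F (-1.23 ± 0.06) and, from end to end, NaJa-G lay 4.59-fold below NaJa-D (-2.20 ± 0.06). Ctgf took the same order with a smaller first step, as NaJa-F lay 1.17-fold and NaJa-G 3.89-fold below NaJa-D. The first of these steps, -0.22 ± 0.05, did not pass at day 5 alone (-0.16, adjusted p = 0.0649) or with library size as the only scaling (-0.10, adjusted p = 0.049).

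Ankrd1 and Clu were both highest in NaJa-F but differed in the order of the other lines. Ankrd1 was 3.69-fold above NaJa-D in NaJa-F (1.88 ± 0.05, adjusted p = 1.75e-22) and 2.47-fold lower in NaJa-G than in NaJa-F. The excess of NaJa-G over NaJa-D, 0.58 ± 0.05, rested on day 1, as the value at day 5 alone was 0.20 (adjusted p = 0.0312). Clu in NaJa-F was 2.28-fold above NaJa-D, and in NaJa-G it was 3.55-fold below NaJa-F and 1.55-fold below NaJa-D (-0.64 ± 0.06). Wwtr1 was lowest in NaJa-D, 1.41-fold below NaJa-F and 1.51-fold below NaJa-G, and its level in NaJa-G and NaJa-F did not separate (0.10, 95% interval 0.00 to 0.20). Yap1 passed in none of the 3 comparisons (0.11, 0.09 and -0.02, adjusted p = 0.0108, 0.0437 and 0.683), though without NaJa-D DMSO day 1 replicate 1 the first 2 were 0.13 and 0.12 and passed (adjusted p = 0.00267 and 0.00709), and Amotl2 was at 0.01 between NaJa-F and NaJa-D (95% interval -0.09 to 0.11). Without the library whose fields disagree, the counts were again 5 and 2 for NaJa-F against NaJa-D and 2 and 6 for NaJa-G against NaJa-D, and the Ly6a values were -0.96 and -2.17. The fibroblast markers, at 2.62 to 6.80 CPM in the DMSO libraries of NaJa-D and NaJa-F and 20.2 to 78.0 CPM in those of NaJa-G, moved with this comparison. So did the epithelial markers, of which 7 of 8 were lower in NaJa-G against NaJa-D (all genes 34.1%) and 8 of 8 against NaJa-F (29.2%). Their sums were 6252 to 7549 CPM for NaJa-D, 4798 to 6043 CPM for NaJa-F and 2622 to 4184 CPM for NaJa-G, the order of Ly6a. Of 4 mesothelial markers, 3 were lower in NaJa-F (all genes 29.0%) and 3 in NaJa-G (34.1%) when set against NaJa-D. Among these 4, Gpm6a was at 205 CPM in NaJa-D DMSO day 1 replicate 3 and at 0.0754 CPM or less in the other DMSO libraries. The part of these markers in the line differences was not tested.

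**Figure D3:**
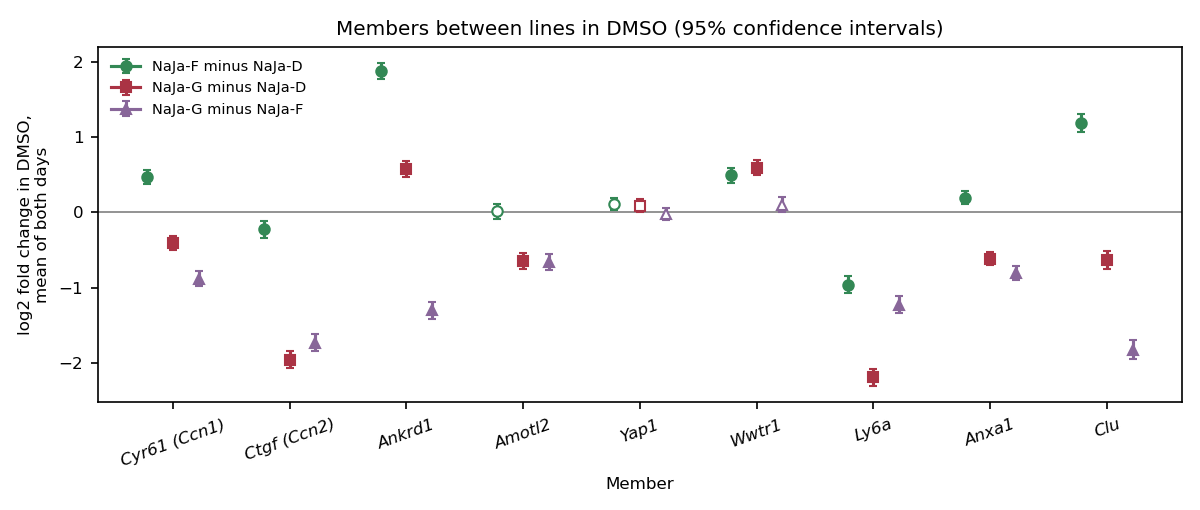
Log2 fold change of each member between lines in DMSO, as the mean of day 1 and day 5, with 95% confidence intervals from limma-voom; filled symbols passed an adjusted p below 0.01. All called NaJa-G minus NaJa-F values lie below 0, and the widest spread between the comparisons is that of Ankrd1, from -1.30 to 1.88.

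Without drug, target levels also differed between the 2 harvest days. The later harvest had also received fresh medium with DMSO on days 2 and 4. From day 1 to day 5 in DMSO, Cyr61 and Ankrd1 fell in all 3 lines, whereas none of Yap1, Ly6a and Anxa1 passed in any. The log2 fold changes of Cyr61 for NaJa-D, NaJa-F and NaJa-G were -0.81, -0.62 and -1.03. Those of Ankrd1 were -0.42, -0.29 and -1.19. Ctgf fell by 0.62 in NaJa-G, while its values of -0.16 and -0.04 in the other lines did not pass. In NaJa-D 4 members fell and none rose (all genes 15.3% lower and 13.7% higher). In NaJa-F 2 fell and 1 rose (7.01% and 9.73%), and in NaJa-G 5 fell and 1 rose (16.8% and 17.2%). Wwtr1 was the member that rose, by 0.23 ± 0.07 in NaJa-F and 0.43 ± 0.07 in NaJa-G. The NaJa-F calls were weak, as Wwtr1 (adjusted p = 0.00994) did not pass in any of the 6 fits without 1 library and the count of falls in that line went from 2 to 1 in 3 of them, those without DMSO day 1 replicate 3 and DMSO day 5 replicates 1 and 2. Clu fell in NaJa-D (-0.51) and NaJa-G (-0.47), and so did Amotl2 (-0.43 and -0.30). The last of these did not pass without DMSO day 1 replicate 1 (-0.23, adjusted p = 0.0161) or DMSO day 5 replicate 3 (-0.26, adjusted p = 0.025). Markers moved with these falls in NaJa-G, as the fibroblast sum went from 57.6 to 78.0 CPM down to 20.2 to 22.9 CPM, with 4 of 6 genes lower, and the epithelial sum from 3346 to 4184 CPM down to 2622 to 3151 CPM. Their part was not tested. With library size as the only scaling, the falls of Ankrd1 in NaJa-D and NaJa-F did not pass (adjusted p = 0.0341 and 0.0677). Without the library whose fields disagree, 4 members again fell in NaJa-D, among them Cyr61 (-0.77) and Ankrd1 (-0.42).

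The difference between 2 responses was then tested itself, with the response of a line being its log2 fold change with encorafenib. These contrasts reuse the same libraries as the comparisons above. At day 1, 6 members responded more in NaJa-G than in NaJa-D, where 36.4% of all genes differed in either direction, and at day 5 it was 7 (all genes 21.9%). Without the library whose fields disagree the day 1 count was 7, with Yap1 added (0.30, adjusted p = 0.00792). Against NaJa-F, 5 members responded more in NaJa-G at day 1 (33.5%) and 6 at day 5 (24.2%). The largest of these differences were those of Ankrd1, 1.95 ± 0.12 against NaJa-F and 1.46 ± 0.11 against NaJa-D at day 5. Between NaJa-F and NaJa-D, 2 members differed at day 1 (all genes 8.79%) and 3 at day 5 (8.85%), among them Ankrd1 at both times, with the smaller response in NaJa-F. The day 5 count dropped to 1 without NaJa-D DMSO replicate 1 or either NaJa-F encorafenib replicate, and that of day 1 went to 1 without NaJa-F DMSO replicate 3 and to 4 without NaJa-D encorafenib replicate 3. Without the library whose fields disagree, the same 2 members differed at day 1, Ankrd1 by -0.45 and Ly6a by 0.63. The Wwtr1 difference at day 5, -0.37 (adjusted p = 0.0098), passed in 0 of 11 fits without 1 library.

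Between the 2 times, 6 members responded differently in NaJa-G (all genes 31.7%), 2 in NaJa-D (7.29%) and none in NaJa-F (5.88%). In NaJa-G the day 5 response was larger than that of day 1 for Ctgf (by 1.46 ± 0.11), Clu (by 1.35 ± 0.11), Ankrd1 (by 1.03 ± 0.11) and Cyr61 (by 0.49 ± 0.09), and smaller for Wwtr1 and Anxa1, the latter a call that held in 1 of 11 fits without 1 library. In NaJa-D it was larger for Clu (by 0.67 ± 0.11) and for Cyr61, whose value of 0.34 ± 0.09 (adjusted p = 0.00976) did not pass without the library whose fields disagree (0.30, adjusted p = 0.0412). The count in NaJa-D moved in 8 of 12 fits without 1 library, to 5 without encorafenib day 1 replicate 3 and to 1 in the others. For NaJa-F, no member passed in limma-voom at an adjusted p below 0.01, 2 did at 0.05, and DESeq2 called 1. Since the DMSO levels of Ctgf, Clu, Ankrd1 and Cyr61 in NaJa-G fell between the times, the difference between the encorafenib groups of the 2 days is not the same quantity. Ankrd1 with encorafenib was 436 ± 10.2 CPM at day 1 and 392 ± 18.3 CPM at day 5 (SD, n = 3). Cyr61 was likewise lower at day 5, at 666 ± 28.2 and 457 ± 21.2 CPM. Ctgf was higher at day 5, at 395 ± 36.6 and 707 ± 21.1 CPM, and so was Clu, at 317 ± 22.7 and 583 ± 22.9 CPM.

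Other genes of the pathway were taken from lists set by function. These lists were chosen with earlier results of these data known, so their counts are not independent support. Of 18 further genes of a YAP and TAZ target signature, 8 rose and 3 fell in NaJa-D at day 1, and 7 rose and 4 fell at day 5. Of all genes, 23.7% and 18.3% were higher in these comparisons, and 21.2% and 14.7% lower. NaJa-F had 8 rises and 2 falls at day 1, and 6 rises and 4 falls later (all genes 17.5% and 12%, then 9.70% and 8.50%). In NaJa-G 10 rose and 2 fell at day 1 (all genes 35.3% and 28.7%), and 12 and 3 at day 5 (28.5% and 24.7%). Without the library whose fields disagree, the NaJa-D counts at day 1 were 8 and 2. The median log2 fold change of these genes lay between 0.13 and 0.54, that of all genes between -0.02 and 0.04. Tgfb2, which encodes a TGF-beta ligand, rose in all 6 comparisons, by 4.01 in NaJa-G at day 1, from 7.10 to 115 CPM on average. Nuak2, a kinase that is itself a YAP target, rose in all 6 as well, by 2.76 in NaJa-G at day 5. Ccdc80 rose at day 1 by 2.53 (NaJa-D), 2.64 (NaJa-F) and 3.98 (NaJa-G). Igfbp3, which encodes a binding protein of insulin-like growth factors, fell in 5 comparisons, with -2.71 for NaJa-G at day 1 the lowest value.

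Hippo pathway genes, which encode the kinases MST and LATS, their adaptors and regulators upstream, rose more often than they fell. Lats2 and Ptpn14 are also in the YAP signature, so the lists overlap and calls of these genes count in both. Of 16, between 5 and 11 rose and at most 2 fell in each comparison, with medians between 0.12 and 0.33, where 9.70% to 35.3% of all genes were higher and 8.50% to 28.7% lower. In NaJa-D at day 1 the counts were 10 risen and 1 fallen, and 6 and 1 without the library whose fields disagree. Among those that rose were Ptpn14, a phosphatase that binds YAP, which rose by 1.496 at day 1 and 1.07 at day 5 in NaJa-G, Amot, an angiomotin like Amotl2, by 1.34 in that line at day 1, and Wwc1 (KIBRA), by 1.13 in NaJa-G at day 5. Sav1, the adaptor of MST, fell in 4 comparisons, with values from -0.30 to -0.15. Among TEAD factors and their VGLL cofactors, of which 6 of 7 were tested, Vgll3 rose in all 6 comparisons, by 0.95 to 3.31, at a level of 0.334 to 5.06 CPM. Tead1, the TEAD factor of the highest mean level, rose in NaJa-G by 0.85 at day 1 and 0.77 at day 5.

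Of 18 further fetal and regenerative genes, 8 rose and 5 fell in NaJa-D at day 1, and 10 rose and 4 fell at day 5. For NaJa-F these counts were 10 and 6 at day 1 and 5 and 6 at day 5, and for NaJa-G 10 and 7 at day 1 and 7 and 5 at day 5. The shares of all genes were those given for the YAP signature, and the falls, 5 of 18 or 27.8% both for NaJa-D at day 1 and for NaJa-G at day 5, lay near the 21.2% and 24.7% of all genes. In NaJa-D at day 1, 6 rose and 5 fell without the library whose fields disagree. Like the members Ly6a, Anxa1 and Clu, this list did not move one way. Msln, which encodes mesothelin, rose in all 6 comparisons, by up to 1.61 in NaJa-G at day 5. Spp1, which encodes osteopontin, fell in all 6, with a lowest value of -2.90 for NaJa-G at day 1. Areg, which encodes the EGFR ligand amphiregulin, fell in NaJa-F at day 1 (-1.39). In NaJa-G it fell at both times, with values of -3.82 at day 1 and -2.65 at day 5. Ly6d rose by 2.33 in NaJa-D at day 1, from 0.449 to 2.27 CPM.

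The adult crypt genes, of which 6 of 8 were tested, held no common direction with encorafenib at day 1. All those called at day 5 were lower. At day 1, the counts risen and fallen were 2 and 3 for NaJa-D, 3 and 1 for NaJa-F and 4 and 1 for NaJa-G, and at day 5 none rose and 3 fell in each line. All-gene shares at day 1 were 23.7% and 21.2%, 17.5% and 12%, and 35.3% and 28.7%, and with 6 genes a single gene is 16.7% of the list. The day 5 shares were 18.3% and 14.7%, 9.70% and 8.50%, and 28.5% and 24.7%. The NaJa-D counts at day 1 were 0 and 3 without the library whose fields disagree. Smoc2 fell in all 6 comparisons, with values from -4.44 to -2.30. Lgr5, the receptor that marks crypt base stem cells, rose at day 1 by 0.76 in NaJa-F and 1.10 in NaJa-G. Without drug all 6 lay above NaJa-F in NaJa-G (all genes 25.2%), with Tnfrsf19 higher by 2.89 and Lgr5 by 2.07.

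**Figure D4:**
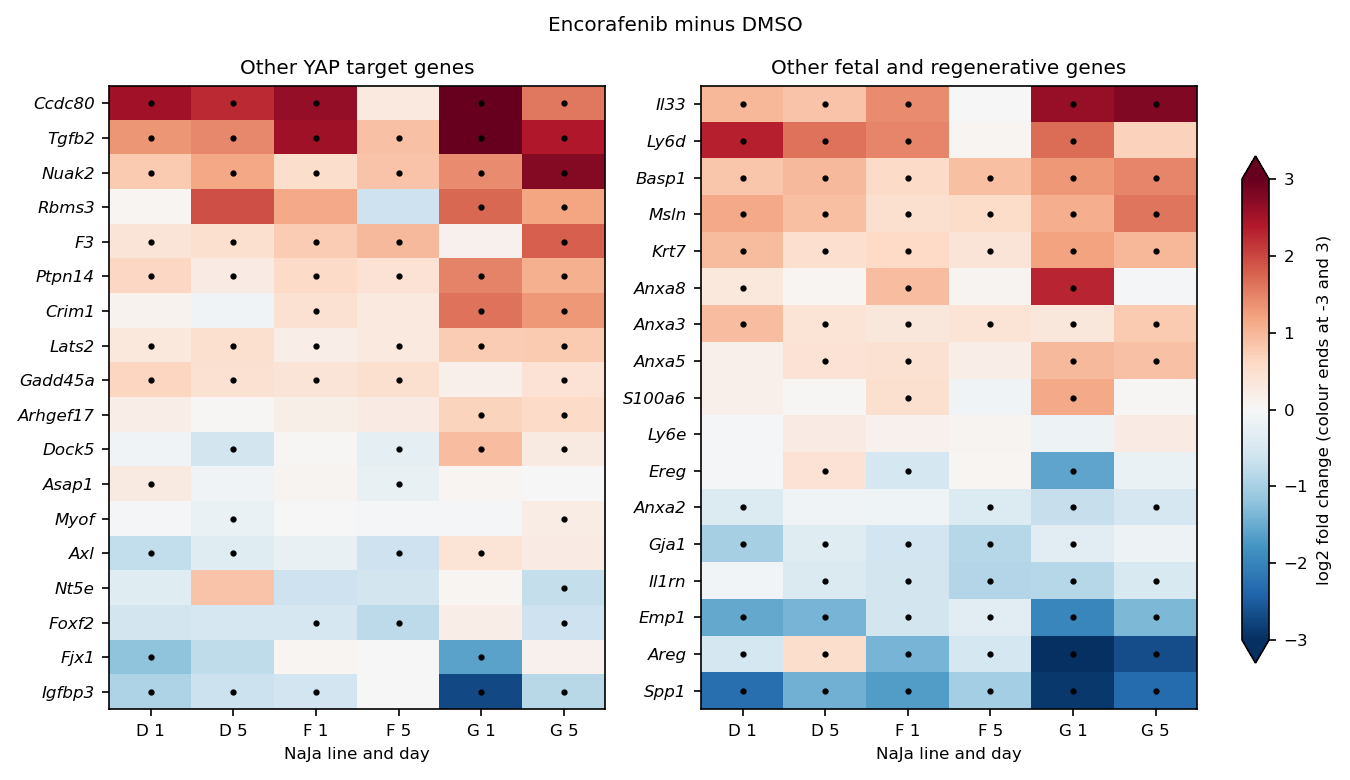
Log2 fold change with encorafenib against DMSO of 18 further YAP target genes (left) and 17 of the 18 further fetal and regenerative genes (right), in rows ordered by mean, with columns for NaJa line and day; red is higher, blue lower, and dots mark an adjusted p below 0.01. Tgfb2 and Nuak2 are higher with a dot in all 6 columns and Spp1 is lower with a dot in all 6, while each list holds genes of both directions.

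How far the members moved together was described over the 12 group means of log2 CPM, after the mean of each line was subtracted. These points share libraries, lines and drug, so the correlations carry no test. Among the 7 members other than Ly6a and Clu, the 21 pairs had Pearson correlations of 0.49 to 0.95, the highest that of Ankrd1 and Amotl2. The pairs with Clu lay between -0.23 and 0.29 and those with Ly6a between -0.13 and 0.56. Anxa1 was thus closer to Ctgf (0.90) and Amotl2 (0.89) than to its fellow fetal markers Ly6a (0.25) and Clu (-0.23).

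**Figure D5:**
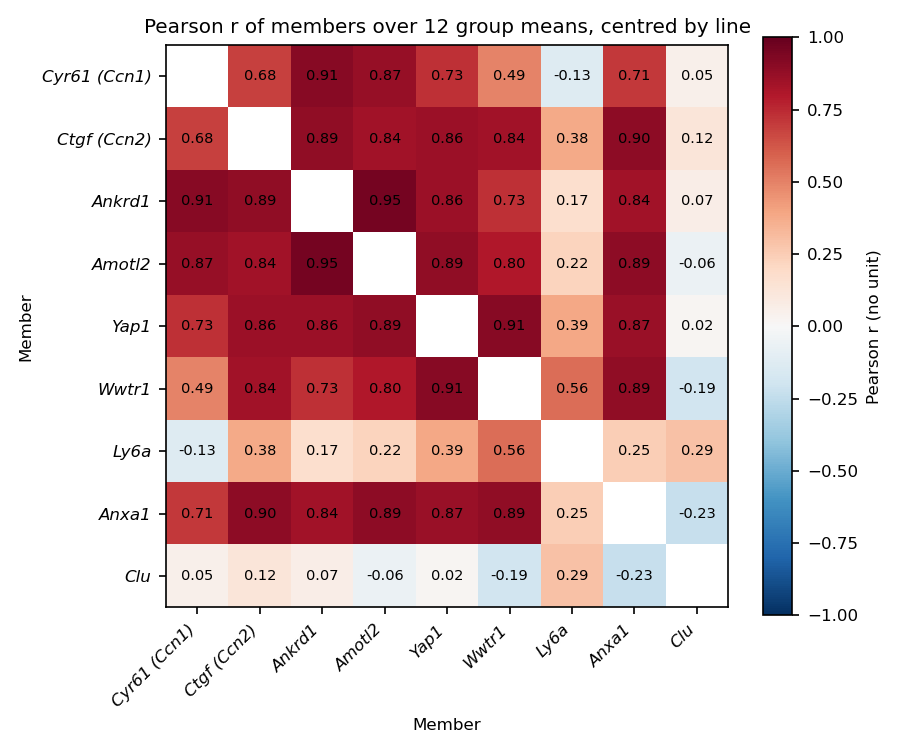
Pearson correlation between members over 12 group means of log2 CPM after the mean of each line was subtracted; red is positive, blue negative, and each cell prints its value. The block of Cyr61 to Wwtr1 with Anxa1 is red, with values from 0.49 to 0.95, and the rows of Ly6a and Clu are pale.

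Among 10256 genes with a mean of at least 2 log2 CPM, the genes most like each member were sought over the 12 group means, without and with that subtraction. Without it, Ctgf was most like Ifih1 (0.98), Nuak2 (0.97) and Dusp10 (0.97), of which Nuak2 is in the YAP signature. Ly6a was most like Retreg1 (0.99), Tmem135 (0.98) and its neighbour in the family Ly6c1 (0.98), and Cyr61 was most like Slc25a25 (0.97). With it, Cyr61 was again most like Slc25a25 (0.98), Amotl2 most like Sema4f (0.99), Ankrd1 most like Fam167a (0.98), and Anxa1 most like Prkci (0.99). For Clu the highest value was 0.90, with Zfp956, and for Ly6a 0.94, with Aig1. With 12 points and so many genes, values of this size are to be read only as an order.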

How the data were processed

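RNA-seq was analysed from the gene table the authors deposited, which holds raw counts per Ensembl gene for 34 libraries. According to the submitters' processing notes and the methods, the authors trimmed reads with Trimmomatic 0.39 and aligned them to GRCm38/mm10 with STAR 2.5.2b; the counting tool and its use of strand are not given in the sources used here. All 34 columns were mapped to samples by name. Symbols were matched for 14064 of 14107 genes, with 43 left unmatched. Counts were scaled by TMM and fitted with limma-voom (limma 3.58.1, edgeR 4.0.16, R 4.3.3) in 1 model with a mean for each of 12 groups, and 21 contrasts were tested with Benjamini-Hochberg adjustment over all genes, called below 0.01. Errors given with log2 fold changes are standard errors. FPKM used exon lengths of GENCODE M21. The variance between replicate pairs was 3.40 to 111 times that of counting noise, and all were kept as separate samples. The highest ratios, 111 and 83.0, were those of NaJa-D encorafenib day 1 replicate 3, against 11.9 for the other pair of its group. Its lowest correlation within its group was 0.988, and its highest with a library of another group was 0.987. Replicate numbers did not pair libraries: deviations of same-numbered libraries correlated at -0.16 to 0.21 over 16 pairs, with 3 above 0.1.

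The members and gene lists were chosen with earlier results of these data known. All 9 members were named in every comparison. Of the further lists, up to 3 called genes with the largest and 3 with the smallest log2 fold change could be named in each encorafenib and line comparison. The 3 genes with the highest correlation over group means were taken for likeness. The alternatives tried were DESeq2 1.42.0, the edgeR quasi-likelihood test, limma-trend (prior count 3), RLE or no scaling, filterByExpr, quality weights, a replicate block, other thresholds, smaller fits and leaving out each library. The list counts without the library whose fields disagree were added after seeing the data. The pipeline was tested on simulated data. Promoters were those of RefSeq. Figures were drawn with matplotlib 3.10.9. One gene of the fetal list is counted there but not reported here by name or plotted.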

Additional observations from a re-analysis of the deposited data

Results flagged for a closer look

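Each of the following values is a difference between 2 encorafenib responses, on the log2 scale, that passed the interaction test of limma-voom at an adjusted p below 0.01, and those that did not hold without single libraries are named.

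Between NaJa-G and NaJa-D at day 1, the response of NaJa-G was larger for Amotl2 by 0.97, Wwtr1 by 0.93, Ly6a by 0.92, Ankrd1 by 0.47, Cyr61 by 0.36 and Anxa1 by 0.32. At day 5 it was larger for Ankrd1 by 1.46, Ctgf by 1.26, Amotl2 by 0.90, Clu by 0.75, Ly6a by 0.66, Cyr61 by 0.51 and Anxa1 by 0.32. The Anxa1 differences had adjusted p = 0.00307 and 0.00724 and were the weakest of these in both sets, the second passing in 3 of 11 fits without 1 library. The Ly6a difference at day 1 joins a fall in NaJa-D and a rise in NaJa-G.

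Between NaJa-G and NaJa-F at day 1, NaJa-G responded more for Amotl2 by 1.02, Ankrd1 by 0.95, Wwtr1 by 0.78, Cyr61 by 0.49 and Anxa1 by 0.40. At day 5 it responded more for Ankrd1 by 1.95, Ctgf by 1.40, Amotl2 by 1.03, Cyr61 by 0.96, Wwtr1 by 0.62 and Clu by 0.58. Between NaJa-F and NaJa-D at day 1, the differences were -0.48 for Ankrd1 and 0.63 for Ly6a, and at day 5 they were -0.49 for Ankrd1, -0.45 for Cyr61 and -0.37 for Wwtr1. The Wwtr1 difference passed in 0 of 11 fits without 1 library and 6 of 9 other alternatives.

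Between day 5 and day 1, the NaJa-G response was larger at day 5 for Ctgf by 1.46, Clu by 1.35, Ankrd1 by 1.03 and Cyr61 by 0.49, and the differences were -0.44 for Wwtr1 and -0.29 for Anxa1. That of Anxa1 passed in 1 of 11 fits without 1 library and 4 of 9 other alternatives. In NaJa-D it was larger at day 5 for Clu by 0.67 and Cyr61 by 0.34. Clu in NaJa-G is the only member of the 9 whose response passed in opposite directions at the 2 times in a line. The causes of these differences were not tested.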

How the results depend on the processing

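The 131 member values followed were all those of the encorafenib and line comparisons and the called ones of the others. Of their 2595 values under alternative settings, 20 changed sign, in 5 member values, none of which had passed the test. Amotl2 between NaJa-F and NaJa-D became -0.0047 with DESeq2, -0.0021 with RLE scaling, -0.0019 with only the groups compared and -0.14 at day 1 alone, and lay between -0.018 and 0.047 without 1 library. Yap1 between NaJa-G and NaJa-F became 0.0048, 0.0035 and 0.0092 with DESeq2, RLE scaling and only the groups compared. The encorafenib value of Yap1 in NaJa-D at day 1 became -0.018 with quality weights and lay between -0.081 and 0.077 without 1 library, and that of Clu in NaJa-D at day 5 became -0.021 with quality weights, -0.0019 with only the groups compared and lay between -0.049 and 0.047 without 1 library. That of Yap1 in NaJa-F at day 5 lay between -0.0127 and 0.018 without 1 library.

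Counts of members called moved as follows, by more than 1.5 times. When calls also had to reach 1 on the log2 scale in either direction, the members higher with encorafenib at day 1 and day 5 were 1 and 1 (NaJa-D), 0 and 1 (NaJa-F), and 5 and 4 (NaJa-G), and 0 were lower. The line counts were then 2 higher and 0 lower (NaJa-F against NaJa-D), 0 and 2 (NaJa-G against NaJa-D) and 4 lower (NaJa-G against NaJa-F). For culture time, 0 fell in NaJa-D, 0 rose or fell in NaJa-F, and 0 rose and 2 fell in NaJa-G. Response differences at day 1 and day 5 dropped to 0 and 0 (NaJa-F against NaJa-D), 0 and 2 (NaJa-G against NaJa-D), and 1 and 3 (NaJa-G against NaJa-F), and between days to 0 (NaJa-D) and 3 (NaJa-G). Fewer values can pass a stricter rule by its construction.

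With an adjusted p below 0.05, 1 member was lower with encorafenib in NaJa-F at day 1, 1 rose with time in NaJa-D and 3 in NaJa-G, and response differences were 4 (NaJa-F against NaJa-D, day 1), 8 (NaJa-G against NaJa-F, day 1), 4 (days, NaJa-D) and 2 (days, NaJa-F). With only the groups compared, 1 was lower with encorafenib in NaJa-D and 1 in NaJa-F at day 1, 2 rose with time in NaJa-F, 3 fell in NaJa-G, and the same response differences were 1, 8, 1 and 3. With library size as the only scaling, which moved the median of all genes by 0.18 for time in NaJa-D, 0.12 between NaJa-F and NaJa-D, 0.12 between NaJa-G and NaJa-D and -0.13 for their day 1 response difference, 1 was lower with encorafenib in NaJa-F at day 1, 1 lower in NaJa-F than NaJa-D, 2 rose with time in NaJa-D, 2 rose and 1 fell in NaJa-F, 3 rose in NaJa-G, and 2 responses differed between days in NaJa-F. With quality weights, 1 was lower in NaJa-F at day 1, 1 rose with time in NaJa-D, 4 fell in NaJa-F, and response differences were 9 (NaJa-G against NaJa-F, day 1), 6 (days, NaJa-D) and 1 (days, NaJa-F). DESeq2 gave 1 lower in NaJa-F at day 1, 0 risen with time in NaJa-F and 1 response difference between its days. edgeR, limma-trend and RLE scaling each gave 0 risen with time in NaJa-F and 1 response difference between days in NaJa-D. At day 5 alone, 1 was lower in NaJa-F than NaJa-D and 1 higher in NaJa-G than NaJa-D. The causes of these shifts were not tested.

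Without 1 library, counts ran from 3 to 5 (higher with encorafenib, NaJa-F, day 5), 0 to 0 (risen with time, NaJa-F), 1 to 2 (fallen with time, NaJa-F), 1 to 4 and 1 to 2 (response of NaJa-F against NaJa-D, day 1 and day 5) and 1 to 5 (days, NaJa-D). Where this left a group with 1 library, it was assumed to vary like the others. The filter of low counts removed 0 genes.

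A replicate block moved no count beyond 1.5 times and changed 1 call, the response difference of Anxa1 between days in NaJa-G (-0.27, adjusted p = 0.012). The numbers do not pair the samples: deviations correlated at -0.16 to 0.21 over 16 pairs, 3 of them over 0.1.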
